A study of Mus musculus with 6 samples.

Results

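The comparison described here took the 2 bead arrays of MC38 cells titled stimulated against the 2 titled unstimulated, 4 of the 6 arrays of the series, chosen by their titles alone. MC38 is a mouse colon carcinoma line on a C57Bl/6 background. Unstimulated cells were subconfluent cultures kept without serum for 16 h and given no agent. Stimulated cells were starved for 16 h and exposed to S100A8/A9 at 10 µg/mL for 6 h. The labels give the medium of both groups as reduced serum, and do not say whether unstimulated cells were held for the same further 6 h. The remaining 2 arrays, of untreated cells in normal growth medium (control), were used for the shared estimate of the spread and to show each gene's level outside starvation. Whether replicates were separate cultures is not stated in the labels. The p-values therefore reflect the spread among these samples alone, and that spread may be technical.

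S100A8/A9, or calprotectin, is a pair of small calcium-binding proteins that neutrophils and monocytes release at sites of inflammation. It is a ligand of the receptors TLR4 and RAGE (gene Ager), which signal through adaptor proteins to the transcription factor NF-kB, and it also binds zinc tightly. NF-kB is held in the cytoplasm by IkB proteins, and when freed it switches on genes for chemokines, antimicrobial proteins and its own inhibitors.

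Between 15303 and 16176 of 45281 probes were detected on the 4 arrays, all on 1 chip. Each group occupied its own positions there, and an effect of position cannot be told apart from one of group. The log2 levels below are background-corrected and quantile-normalized intensities. Of the markers checked against the labelled cell type, 1 of 23 epithelial genes (Muc1) was detected on at least 2 arrays, and Epcam, Krt8, Krt18, Krt19, Vil1 and Cdx2 were detected on 0. By contrast, 14 of 19 fibroblast and mesenchymal genes were tested, with Vim and Fn1 among the well detected. Of 16 leukocyte and endothelial markers present on the array, 0 were detected on 2 arrays. The median difference between the replicates of a group was 0.16 (unstimulated) and 0.17 (stimulated) on the log2 scale over 8909 genes.

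After S100A8/A9, 7 of 8909 genes rose, 0.0786% of those tested, and 0 fell (limma, Benjamini-Hochberg adjusted p below 0.05). At an unadjusted p below 0.05, 339 genes (3.81%) were higher and 392 (4.4%) were lower. By size alone, 19 estimates lay above a 2-fold rise and 7 beyond a 2-fold fall, while 104 and 112 lay past 1.5-fold. The 7 genes encode a chemokine, an iron-binding antimicrobial protein, a zinc importer, a nuclear IkB protein, an RNase, a death receptor and a fibronectin type III domain protein.

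Cxcl1 (chr5:90891245-90893121, RefSeq on GRCm38.p6) encodes a CXC chemokine that draws neutrophils through the receptor CXCR2. Its log2 level was 11.77 and 11.96 on the unstimulated arrays and 14.36 and 14.25 on the stimulated arrays. On the control arrays it was 12.03 and 11.76. The starved cells were at the level of growing cells, and both stimulated arrays lay far above all others. The rise was 5.43-fold (a log2 difference of 2.44 ± 0.16 SE with n = 2 in each group, limma adjusted p = 0.00041).

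The Cxcl1 promoter, 250 bases before to 50 after the annotated start, is shown because the only called chemokine gene carries there the letters of a classical NF-kB site. It lies at chr5:90890995-90891294 on the plus strand (RefSeq, GRCm38.p6). Capitals mark every match, on either strand, to a kB-like motif written as GGGA, any 4 bases, then CC.
Cxcl1: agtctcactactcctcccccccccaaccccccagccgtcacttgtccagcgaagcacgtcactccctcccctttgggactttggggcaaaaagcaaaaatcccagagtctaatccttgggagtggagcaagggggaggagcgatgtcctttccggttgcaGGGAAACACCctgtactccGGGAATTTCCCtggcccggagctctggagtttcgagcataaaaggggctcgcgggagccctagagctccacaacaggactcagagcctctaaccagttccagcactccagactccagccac
The first run in capitals holds the match GGGAAACACC and begins 90 bases before the start. The second holds a match on each strand, GGGAATTTCC from 71 bases and, overlapping it, GGAATTTCCC from 70 bases before the start. Both of the latter also fit a narrower form, GGGA, any 2 bases, then TTCC. Of 32851 mouse promoter windows of 300 bases, 1.47% hold the narrower form and 20.7% the wider one. Among windows of tested genes the shares are 1.39% and 26.2%. Promoter windows were found for 5 of the 7 genes. Those of Lcn2, Fas, Zc3h12a and Slc39a10 had 0 matches to either form, which says only that these letters are not in that window.

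Lcn2 (chr2:32384637-32387739) encodes lipocalin 2, which withholds iron from bacteria by binding their siderophores. Its level was 4.62 and 4.67 on the unstimulated arrays and 4.49 and 4.79 on the control arrays, none of which detected it. On the stimulated arrays it was 7.51 and 8.04, detected on both. The rise was at least 4.98-fold (limma adjusted p = 0.00041), a lower bound because the starting level was not above background.

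Slc39a10 (chr1:46807544-46925776) encodes ZIP10, a zinc importer of the plasma membrane. Its level was 7.45 and 7.06 without S100A8/A9 and 9.70 and 9.56 with it. The control arrays were at 8.79 and 8.83. Starved cells were therefore the lowest of the groups and stimulated cells the highest, with no overlap between any of them. The rise was 5.18-fold (2.37 ± 0.17 SE, n = 2, limma adjusted p = 0.000526). In the same model the unstimulated mean was 1.55 below control on the log2 scale, and the stimulated mean was 0.82 above it.

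Nfkbiz (chr16:55811375-55838954) encodes IkB-zeta, a nuclear member of the IkB family needed for a subset of NF-kB target genes, Lcn2 among them. Its level was 9.49 and 9.42 on the unstimulated and 11.40 and 11.25 on the stimulated arrays, against 8.39 and 8.25 in control cells. The order ran from control through unstimulated to stimulated without overlap. The rise was 3.65-fold (1.87 ± 0.15 SE, n = 2, limma adjusted p = 0.000918).

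Zc3h12a (chr4:125118414-125127881) encodes Regnase-1, an RNase that cuts mRNAs of inflammatory genes and thereby limits the response. Its level was 6.35 and 6.84 unstimulated and 8.34 and 8.42 stimulated, with 6.37 and 6.64 in control cells. The 4 arrays without S100A8/A9 overlapped one another, and the stimulated arrays lay apart. The rise was 3.45-fold (1.78 ± 0.19 SE, n = 2, limma adjusted p = 0.00752). A second Zc3h12a probe, detected on the stimulated arrays alone, was higher by at least 1.92-fold (limma adjusted p = 0.0266 over all detected probes).

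Fas (chr19:34290647-34327775) encodes the receptor of the death ligand FASL. Its level was 8.37 and 8.44 unstimulated and 9.80 and 9.89 stimulated, against 7.92 and 7.82 in control cells. Replicates lay within 0.1 of each other in every group. The rise was 2.71-fold (1.44 ± 0.14 SE, n = 2, limma adjusted p = 0.00531). Its second probe gave 1.34 ± 0.18 (limma adjusted p = 0.0805 over all detected probes), and the third, not detected without S100A8/A9, at least 1.87-fold (adjusted p = 0.114).

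Fndc7 (chr3:108853678-108890008) encodes a protein with fibronectin type III repeats. Its level was 4.98 and 4.74 unstimulated, 5.36 and 5.28 in control cells, and 6.30 and 6.68 stimulated. It was detected on the stimulated arrays alone. Like Lcn2, Fndc7 met the detection filter through those arrays, so a rise was favoured by the filter. The rise was at least 2.05-fold (limma adjusted p = 0.00752).

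**Figure D1:**
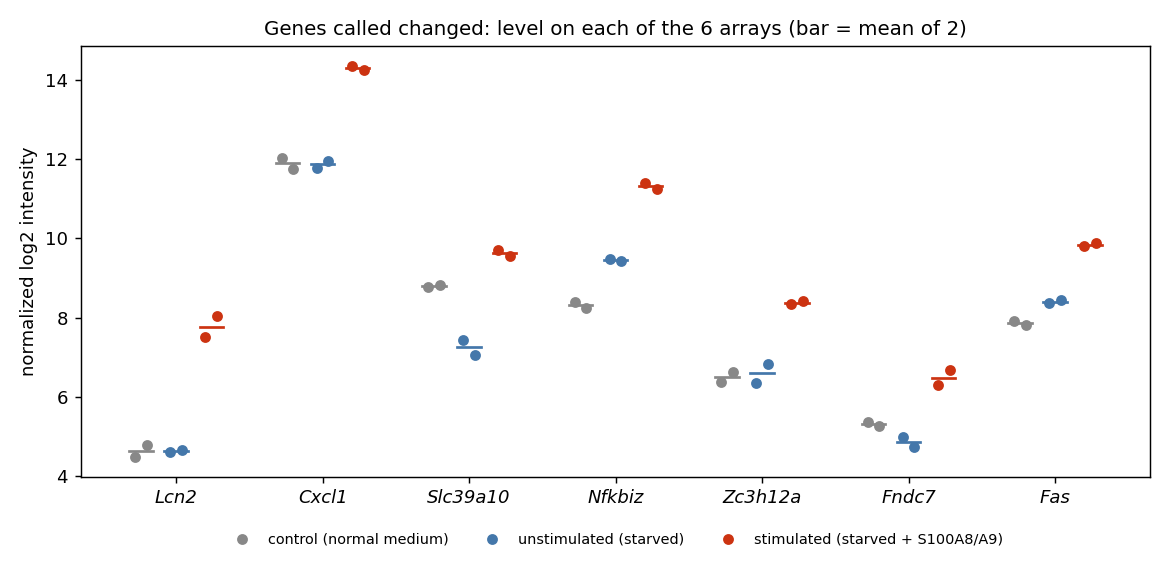
Normalized log2 intensity (vertical axis) of the 7 called genes on each of the 6 arrays, with points for arrays and bars for the mean of 2. The 2 stimulated arrays lie above the other 4 for each gene, from 6.30 and 6.68 for Fndc7 to 14.36 and 14.25 for Cxcl1.

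The same fit over all 16355 detected probes, including those that the annotation used does not name, called 10 probes higher (0.0611%) and 0 lower. These were 1 probe each of Lcn2, Cxcl1, Slc39a10, Nfkbiz, Fas and Fndc7, both detected Zc3h12a probes and 2 unnamed probes. Of the unnamed ones, ILMN_2759484 had levels of 5.63 and 5.81 on the unstimulated and 8.83 and 9.32 on the stimulated arrays. It was not detected in control cells (4.66 and 4.86). The log2 fold change was 3.35 ± 0.20 SE (n = 2, limma adjusted p = 0.00134).

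ILMN_2954474 was at 8.07 and 8.27 unstimulated and 9.48 and 9.54 stimulated, with 6.79 and 6.61 in control cells. Its log2 fold change was 1.34 ± 0.16 SE (n = 2, limma adjusted p = 0.0326). The genes behind both probes are not named here.

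How many further genes passed differed between processing settings. With the authors' deposited log2 values, which are quantile-normalized without background correction, the same test called 44 genes, 30 higher (0.337%) and 14 lower (0.157%), among them all 7 above. The split was 25 higher and 11 lower with a larger background offset, 27 and 9 when the prior variance followed intensity, and 8 and 7 with median scaling. Median scaling moved the median of all genes to -0.13 on the log2 scale, so its falls are to be read against that shift. Of the 37 genes gained with the deposited values, 34 were detected on all 4 arrays. Below, such a gene is said to be called with the deposited log2 values. Its change did not pass in the main fit, the background-corrected fit that called the 7, unless stated. It may have passed under other settings with background correction, as Ccl2 did with an offset of 50. Of 41 genes called under any other setting but not in the main fit, 31 were called under at least 3 of 11 settings. Fold changes on that scale are smaller for dim genes, since background is still in the signal.

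**Figure D2:**
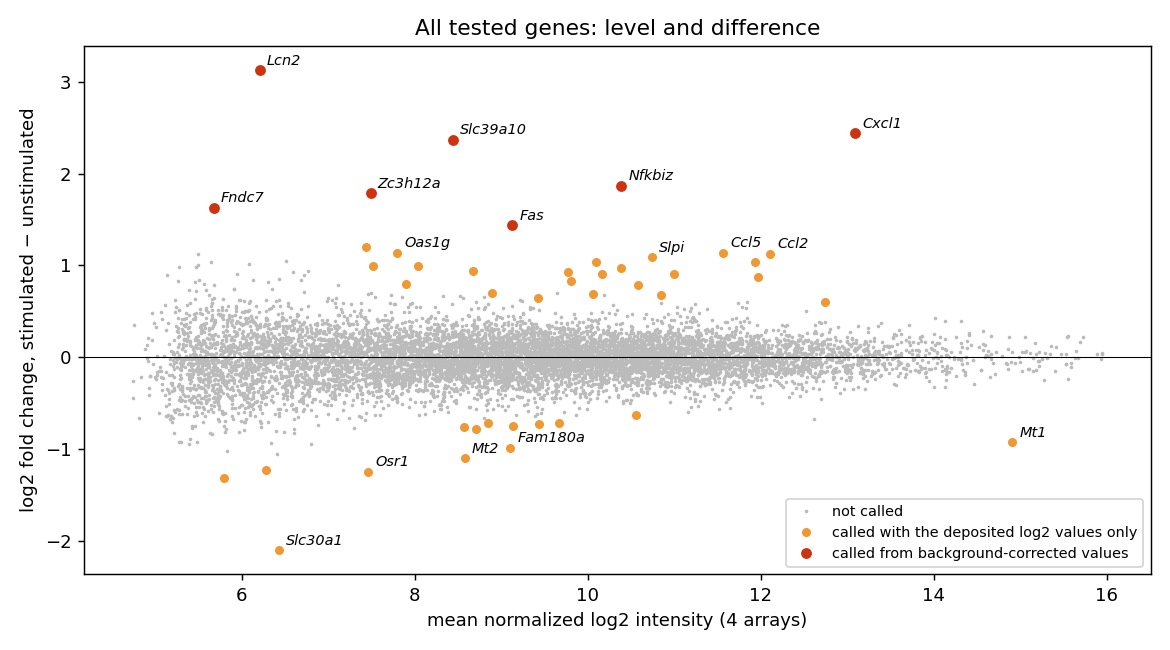
Log2 fold change, stimulated minus unstimulated (vertical axis), against the mean log2 intensity of the 4 arrays (horizontal axis) for 8909 genes. Red points are the 7 genes called in the main background-corrected fit. Orange points are the 37 further genes called with the deposited log2 values, and grey points all other genes.

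Chemokines had the highest median of the lists with more than 3 tested genes. Of 36 listed, 11 were tested, and 1 of the 11, Cxcl1, rose. All 11 estimates were above 0, against 48.3% of all genes. On the higher side 8 of 11 had an unadjusted p below 0.05, against 3.81% of all genes. Their median log2 fold change was 0.73, 0.59 with Cxcl9 at its bound of at least 1.42-fold, or 0.82 over the 10 detected on both unstimulated arrays, against -0.01 for all genes. Cxcl9 met the detection filter through the stimulated arrays, so its place above 0 was favoured by the filter.

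The monocyte attractants Ccl2 and Ccl7 were both expressed at high levels before stimulation. Ccl2 was at 11.59 and 11.51 unstimulated and 12.50 and 12.85 stimulated (log2 fold change 1.13 ± 0.16 SE, limma adjusted p = 0.0524). Control cells had 12.20 and 12.30, between the starved groups. Ccl7 was at 11.42 and 11.39, then 12.35 and 12.55 (1.04 ± 0.15 SE, adjusted p = 0.0524), and its second probe gave 1.12 ± 0.15 (adjusted p = 0.0805 over all detected probes). Ccl5, which attracts T cells and monocytes, was at 10.95 and 11.04, then 12.12 and 12.15 (1.14 ± 0.20 SE, adjusted p = 0.0978). It was at 8.92 and 8.33 in control cells, far below both starved groups.

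With the deposited log2 values these 3 were called higher, Ccl2 at 1.11 (limma adjusted p = 7.19e-05), Ccl5 at 1.11 (adjusted p = 0.000152) and Ccl7 at 1.02 (adjusted p = 0.000116). In each of the 3, both stimulated arrays lay above both unstimulated arrays, as they did for 18.5% of all genes. The eosinophil attractant Ccl11 was at 6.21 and 5.77, then 6.87 and 7.22 (1.05 ± 0.19 SE, adjusted p = 0.109). The T cell attractant Cxcl10 was at 10.99 and 10.98, then 11.54 and 11.28 (0.43 ± 0.15 SE, adjusted p = 0.487). Another 24 listed chemokines, among them the neutrophil attractants Cxcl2 and Cxcl3, were detected on 0 arrays.

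Among NF-kB subunits, IkB proteins and their feedback genes, 1 of 23 tested rose, Nfkbiz. The list's median was 0.06, close to that of all genes, and 15 of 23 estimates were above 0, against 48.3% of all genes. The subunit genes Rela, Relb and Rel had log2 fold changes of -0.02, 0.02 and 0.00, and Nfkbia, which encodes IkB-alpha, had 0.14. The apoptosis inhibitor genes Birc3 (0.61 ± 0.16 SE, limma adjusted p = 0.297) and Birc2 (0.48 ± 0.14, adjusted p = 0.366) did not pass, nor did Tnfaip3, which encodes the deubiquitinase A20 (0.38). Nfkbid, outside the list, encodes a further nuclear IkB protein and had 7.39 and 6.28 unstimulated and 8.18 and 7.88 stimulated (1.20 ± 0.31 SE, adjusted p = 0.293). Its unstimulated arrays differed by 1.11 on the log2 scale, and it was called with the deposited log2 values (0.83, adjusted p = 0.0183).

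A further list of NF-kB target genes did not hold the 7 called genes, and its count does not speak to them. Cxcl1, Lcn2 and Nfkbiz, for example, were counted in other lists. Of its 20 tested genes, 0 passed, while 19 estimates were above 0 and 8 had an unadjusted p below 0.05 on the higher side (median 0.31). The shares among all genes were 48.3% and 3.81%. Ptgs2, which encodes the prostaglandin-forming enzyme COX-2, had the smallest p of this list. Its level was 6.41 and 6.11 unstimulated and 7.08 and 7.13 stimulated, with 7.15 and 7.30 in control cells (0.85 ± 0.16 SE, limma adjusted p = 0.115). The stimulated arrays thus lay at about the control level, above the starved one. The matrix proteases Mmp9 (0.66 ± 0.14, adjusted p = 0.179) and Mmp3 (0.85 ± 0.19, adjusted p = 0.191) did not pass. Vcam1, an adhesion molecule for leukocytes, was at 12.42 and 12.47, then 12.93 and 13.16, and was called with the deposited log2 values (0.59, adjusted p = 0.0454). Tnf, Il6, Nos2 and Icam1 were detected on 0 arrays.

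Few acute phase and antimicrobial genes were expressed: 3 of 27 listed were tested. Lcn2 rose, as given above. Slpi, which encodes an inhibitor of neutrophil proteases, was at 10.17 and 10.23 unstimulated, 11.08 and 11.50 stimulated, and 10.14 and 9.89 in control cells. Its difference of 1.09 ± 0.18 SE missed the threshold (limma adjusted p = 0.0828) and was called with the deposited log2 values (1.05, adjusted p = 0.000254). Serum amyloid genes Saa1 and Saa2 were detected on 0 arrays, and Saa3 on 1.

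**Figure D3:**
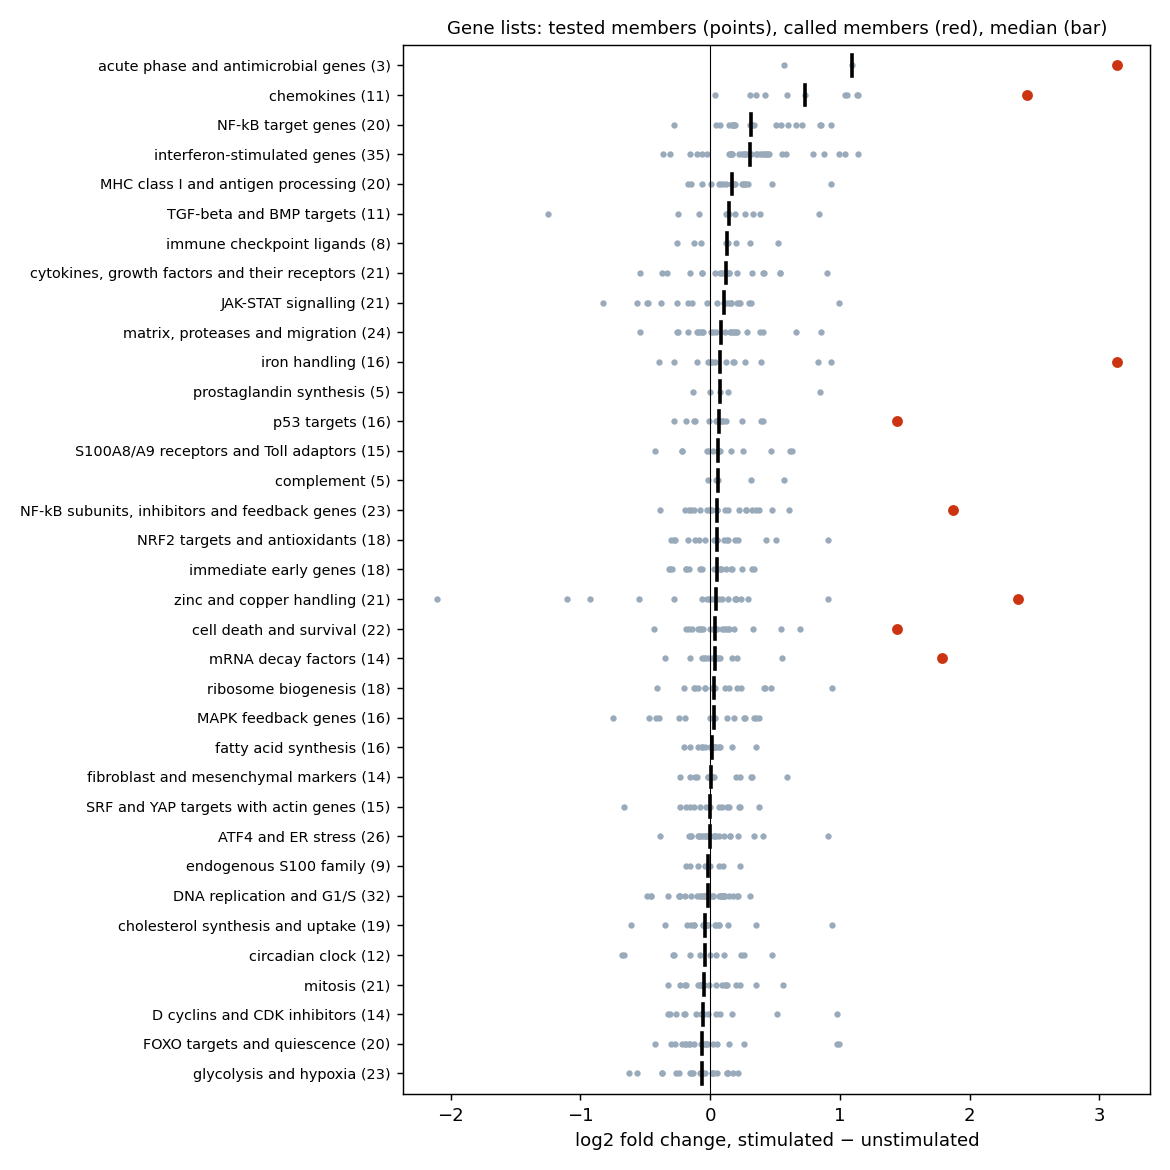
Log2 fold change, stimulated minus unstimulated (horizontal axis), of the tested members of each gene list with at least 3 of them. Each row is a list with its number of tested genes, grey points are members, red points called members and black bars medians. Medians run from -0.06 for glycolysis and hypoxia to 1.09 for acute phase and antimicrobial genes.

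The zinc genes held both a called rise, of the importer Slc39a10, and a negative estimate past 2-fold, of the exporter Slc30a1. Of 21 tested zinc and copper genes, 1, Slc39a10, rose and 0 fell, and the median was 0.05. At an unadjusted p below 0.05, 2 were higher and 4 lower, against 3.81% and 4.4% of all genes. Slc30a1 encodes ZnT1, the exporter that carries zinc out of the cell. Its level was 7.52 and 7.45 unstimulated, 7.09 and 6.63 in control cells, and 4.73 and 6.02 stimulated. The stimulated arrays lay below all others but 1.29 apart, and 1 of them did not detect the gene. The log2 fold change of -2.10 ± 0.35 SE missed the threshold (limma adjusted p = 0.0896), and leaving out stimulated replicate 1, the array that did not detect the gene, gave -1.46. The fit without stimulated replicate 2 called the gene lower (adjusted p = 0.00248), but its size there rests on a level that was not above background.

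Metallothioneins are small proteins that bind zinc and copper. Mt1 was among the brightest genes, at 15.13 and 15.61 unstimulated, 14.55 and 14.34 stimulated, and 15.04 and 14.97 in control cells (-0.92 ± 0.19 SE, limma adjusted p = 0.148). Mt2 was at 9.21 and 9.05, then 7.72 and 8.34, with 8.57 and 7.60 in control cells (-1.10 ± 0.31 SE, adjusted p = 0.333). For both, the stimulated arrays lay below the unstimulated ones. For Mt2 they overlapped the control arrays.

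With the deposited log2 values all 3 were called lower, Slc30a1 at -1.17 (limma adjusted p = 0.000177), Mt1 at -0.92 (adjusted p = 0.00163) and Mt2 at -0.93 (adjusted p = 0.0168). Cp, which encodes the copper-carrying ferroxidase ceruloplasmin, was called higher (0.85, adjusted p = 0.00295). Its level was 9.94 and 9.49 unstimulated, 10.51 and 10.74 stimulated, and 6.45 and 6.67 in control cells. Mtf1, which encodes the zinc-sensing factor that activates metallothionein genes, had a log2 fold change of -0.06 ± 0.20. The other zinc importers and exporters tested had estimates from -0.28 (Slc39a7) to 0.29 (Slc39a13).

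Mt1, Mt2 and Slc30a1 were called lower with the deposited values and under some other settings, but not in the main fit. Their promoters are shown because MTF1 acts through metal response elements. The core of these is TGCACNC or TGCGCNC. Capitals mark each match on either strand. The windows are RefSeq starts on GRCm38.p6, all on the plus strand, at chr8:94178839-94179138 for Mt1, chr8:94172368-94172667 for Mt2 and chr1:191906531-191906830 for Slc30a1.
Mt1: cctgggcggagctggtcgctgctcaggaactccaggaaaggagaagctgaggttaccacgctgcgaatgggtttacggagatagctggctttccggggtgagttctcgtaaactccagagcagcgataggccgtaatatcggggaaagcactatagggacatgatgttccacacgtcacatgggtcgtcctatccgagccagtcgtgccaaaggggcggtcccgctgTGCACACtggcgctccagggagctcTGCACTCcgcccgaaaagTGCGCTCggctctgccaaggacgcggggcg
Mt2: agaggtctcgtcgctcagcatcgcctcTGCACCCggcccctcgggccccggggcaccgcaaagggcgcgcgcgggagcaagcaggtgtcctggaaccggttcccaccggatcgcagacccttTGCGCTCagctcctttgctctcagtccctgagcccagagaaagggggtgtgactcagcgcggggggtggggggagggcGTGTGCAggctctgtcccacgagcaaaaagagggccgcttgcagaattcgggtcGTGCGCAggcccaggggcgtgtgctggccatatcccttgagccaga
Slc30a1: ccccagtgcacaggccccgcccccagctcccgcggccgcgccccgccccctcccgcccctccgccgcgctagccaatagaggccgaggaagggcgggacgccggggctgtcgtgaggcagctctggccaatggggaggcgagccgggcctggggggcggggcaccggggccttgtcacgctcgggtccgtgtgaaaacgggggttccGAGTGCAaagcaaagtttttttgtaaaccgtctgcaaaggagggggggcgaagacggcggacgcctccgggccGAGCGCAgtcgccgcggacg
Mt1 held 3 matches, Mt2 held 4 and Slc30a1 held 2. Of all promoter windows, 25.7% held at least 1 match to either core, and of windows of tested genes 36.5% did. The windows of Slc39a10, the zinc gene that rose, had 0, which says only that these letters are not in those windows. Whether MTF1 acted on any of these genes was not tested.

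**Figure D4:**
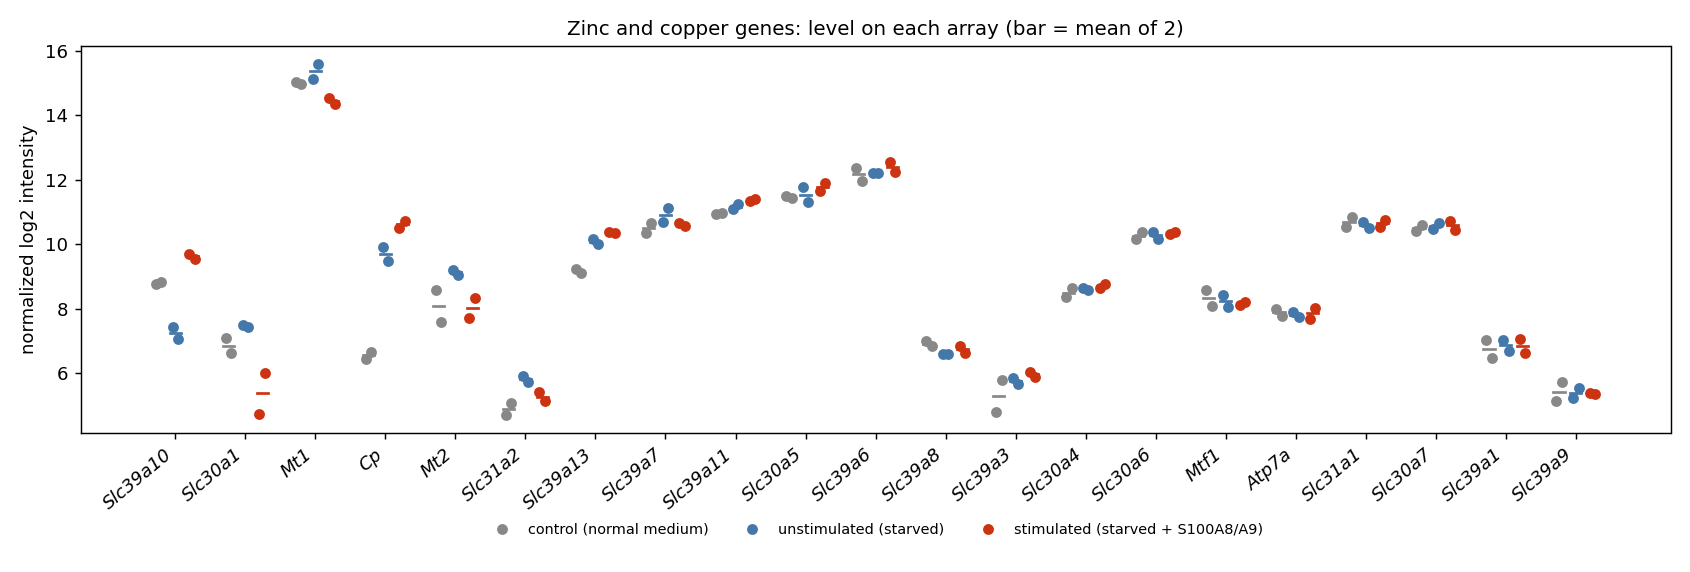
Normalized log2 intensity (vertical axis) of the 21 tested zinc and copper genes on each of the 6 arrays, ordered by p, with points for arrays and bars for the mean of 2. Slc39a10 is highest in stimulated cells, while the stimulated arrays of Slc30a1 (4.73 and 6.02), Mt1 and Mt2 lie below the unstimulated ones.

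Iron genes apart from Lcn2 did not pass (16 tested, median 0.08). Slc11a2, which encodes the iron importer DMT1, was at 9.62 and 8.99 unstimulated and 10.38 and 10.08 stimulated (0.93 ± 0.22 SE, limma adjusted p = 0.263). It was called higher with the deposited log2 values (0.86, adjusted p = 0.00851), but its other probes gave 0.49 and 0.20. The ferritin genes Fth1 and Ftl1 had log2 fold changes of 0.03 and 0.01, and the transferrin receptor gene Tfrc 0.18.

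Interferon-stimulated genes lay slightly higher, with 0 of 35 called. Of the 35, 29 estimates were above 0 and 12 had an unadjusted p below 0.05, all on the higher side (median 0.31). Of all genes, 48.3% had an estimate above 0 and 3.81% were higher at that p. Irf9, the DNA-binding part of the factor that type I interferon activates, was at 7.60 and 7.48 unstimulated and 8.52 and 8.53 stimulated (0.99 ± 0.14 SE, limma adjusted p = 0.0524). Its control level was 6.96 and 6.88, the lowest of the 3 groups, and its second probe gave 0.61 ± 0.20 (adjusted p = 0.517 over all detected probes). Oas1g, an antiviral enzyme gene, was at 7.40 and 7.04, then 8.29 and 8.44 (1.14 ± 0.20 SE, adjusted p = 0.105), and its second probe gave 0.81 ± 0.16 (adjusted p = 0.199 over all detected probes). The antimicrobial GTPase gene Gbp3 was at 9.38 and 9.77, then 10.46 and 10.77 (1.04 ± 0.19 SE, adjusted p = 0.109), and its second probe gave 1.28 ± 0.20 (adjusted p = 0.114 over all detected probes).

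With the deposited log2 values, 5 of the 35 were called higher, against 0.337% of all genes. They were Irf9 (0.78, limma adjusted p = 0.00213), Oas1g (0.86, adjusted p = 0.00163), Gbp3 (0.98, adjusted p = 0.000793), Gbp2 (0.86, adjusted p = 0.00213) and Usp18 (0.61, adjusted p = 0.0449). Other interferon targets had smaller estimates from background-corrected values, Rsad2 0.26, Ifit2 0.24, Mx2 0.15 and Isg15 0.36, and did not pass. In the MHC class I list 0 of 20 passed (median 0.17). The peptide trimming enzyme gene Erap1 was at 6.20 and 6.06, then 6.74 and 7.39 (0.93 ± 0.21 SE, adjusted p = 0.228). The class I heavy chain genes H2-K1 and H2-D1 had 0.19 and 0.16.

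Receptors and adaptors of S100A8/A9 did not pass (15 tested, 0 called, median 0.06). Tlr4 was expressed, at 8.34 and 8.80 unstimulated and 8.78 and 8.87 stimulated, groups that overlapped (0.25 ± 0.18 SE, limma adjusted p = 0.769). Its co-receptor gene Ly96 had 0.07 and the adaptor gene Myd88 -0.01. Cd14, which hands ligands to TLR4, was at 8.97 and 8.89, then 9.51 and 9.59 (0.62 ± 0.15 SE, adjusted p = 0.263), and Tlr2 had 0.63 ± 0.17 (adjusted p = 0.333). Of the other receptor, Ager, no probe was detected on more than 1 array, and the cells' own S100a8 and S100a9 were detected on 0.

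Other large negative estimates belonged to genes of varied function. Osr1, a zinc finger transcription factor gene, was at 7.92 and 8.26 unstimulated and 7.01 and 6.67 stimulated, with 6.51 and 6.82 in control cells (-1.25 ± 0.19 SE, limma adjusted p = 0.0587). Fam180a was at 9.63 and 9.57, then 8.50 and 8.73 (-0.99 ± 0.15 SE, adjusted p = 0.0524), and at 5.74 and 5.77 in control cells. For Fam180a the stimulated arrays lay between the starved and the growing cells, and for Osr1 they overlapped the control arrays. With the deposited log2 values both were called lower, Osr1 at -0.89 (adjusted p = 0.0013) and Fam180a at -0.87 (adjusted p = 0.000793).

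Borcs7, a subunit gene of the complex that positions lysosomes, was detected on both unstimulated arrays (6.46 and 6.44) and neither stimulated one (4.87 and 5.40), at least 1.83-fold lower (limma adjusted p = 0.0524). It was called lower with the deposited log2 values (-0.61, adjusted p = 0.0415), as was Pogz (-0.65, adjusted p = 0.0434). Sigirr, a receptor gene that restrains Toll and interleukin-1 signalling, was at 7.41 and 7.13, then 6.36 and 6.29 (-0.94 ± 0.19 SE, adjusted p = 0.151). St3gal4, a sialyltransferase gene, had -1.06 ± 0.19 (adjusted p = 0.106), Pogz, detected on 1 of 2 stimulated arrays, -1.23 ± 0.24 (adjusted p = 0.134) and Slc12a4, a potassium-chloride cotransporter gene, -1.02 ± 0.28 (adjusted p = 0.336). Muc1 was at least 1.22-fold lower (adjusted p = 0.263), and it was detected neither in control nor in stimulated cells.

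Signalling feedback genes gave no calls. Socs1, an inhibitor of JAK kinases, was detected on both unstimulated arrays and neither stimulated array, at least 1.38-fold lower (limma adjusted p = 0.264), while Socs3 had 0.23. Of 16 MAPK feedback genes, 4 were lower and 1 higher at an unadjusted p below 0.05, against 4.4% and 3.81% of all genes. The phosphatase gene Dusp1 was at 12.60 and 12.71, then 12.16 and 12.31 (-0.42 ± 0.14 SE, adjusted p = 0.473). Of 18 immediate early genes, 0 had an unadjusted p below 0.05, with estimates from -0.32 to 0.34, at the single time of 6 h.

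Growth and metabolic lists gave no calls in the main fit and their medians lay near that of all genes. They were -0.02 for DNA replication (32 genes), -0.05 for mitosis (21), -0.06 for FOXO targets (20), 0.03 for ribosome biogenesis (18), -0.004 for ATF4 and ER stress (26), -0.06 for glycolysis and hypoxia (23), -0.04 for cholesterol (19) and 0.02 for fatty acid synthesis (16). Single members stood out by size. Under other settings with background correction some were called higher, such as Gnl3 with an offset of 50 and Cyp7b1 with detection on at least 4 arrays. The mitotic cyclin gene Ccna2 was at 6.44 and 6.53 unstimulated, 7.13 and 6.97 stimulated and 7.72 and 7.64 in control cells (0.56 ± 0.14 SE, limma adjusted p = 0.291). Gnl3, which encodes the nucleolar GTPase nucleostemin, was at 6.12 and 6.48, then 7.11 and 7.37, with 7.76 and 7.78 in control cells (0.94 ± 0.17 SE, adjusted p = 0.111). For both genes the stimulated arrays lay between starved and growing cells.

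Slc7a11, the cystine importer gene that supplies glutathione synthesis, was at 10.68 and 10.40, then 11.52 and 11.37 (0.91 ± 0.17 SE, limma adjusted p = 0.109), while its other probes gave 0.46 and 0.43. It was called higher with the deposited log2 values (0.88, adjusted p = 0.0015), as were Cyp7b1, an oxysterol hydroxylase gene (0.80, adjusted p = 0.00163), the ubiquitin ligase gene Fbxo32 (0.72, adjusted p = 0.00724) and Skil, a repressor of TGF-beta signalling (0.78, adjusted p = 0.00542). Casp4, the inflammatory caspase gene whose product senses lipopolysaccharide, was called higher too (0.65, adjusted p = 0.0272), at 9.55 and 9.89, then 10.44 and 10.39. From background-corrected values the second Skil probe gave 0.46 against 0.84 for the chosen one, the second Fbxo32 probe 1.25 against 0.99, and both further Casp4 probes 0.57 against 0.69. Among genes named after their values were seen, the proliferin genes Prl2c3 (0.93, adjusted p = 0.000793) and Prl2c2 (0.66, adjusted p = 0.0168) and the homeobox gene En1 (0.75, adjusted p = 0.00378) were called higher, and Lmcd1 (-0.66, adjusted p = 0.0168) lower. Prl2c3 and Prl2c2 are near-identical copies whose probes may not tell them apart. Gbp2, Usp18, Cp and Vcam1 above were also named after their values were seen.

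Leaving out 1 array at a time kept some calls in every fit and lost others. Each such fit has fewer arrays, so a lost call does not show that a gene's change is less firm. Cxcl1, Slc39a10 and Nfkbiz passed in 6 of 6 such fits, Lcn2 in 4 of 4 that tested it, Fas in 4 of 6, Zc3h12a in 3 of 6 and Fndc7 in 2 of 4. The count of 7 became 4 without unstimulated replicate 1 and 4 without stimulated replicate 1. Each of the 7 was called in every other setting that tested it, 11 of 11 for Cxcl1, Slc39a10, Nfkbiz, Fas and Zc3h12a and 10 of 10 for Lcn2 and Fndc7. These counts hold both the deposited values and the nearly identical values without background correction. Lcn2 and Fndc7 were tested only in fits that kept both stimulated arrays, through which they met the filter. Their counts are therefore no check on that detection.

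**Figure D5:**
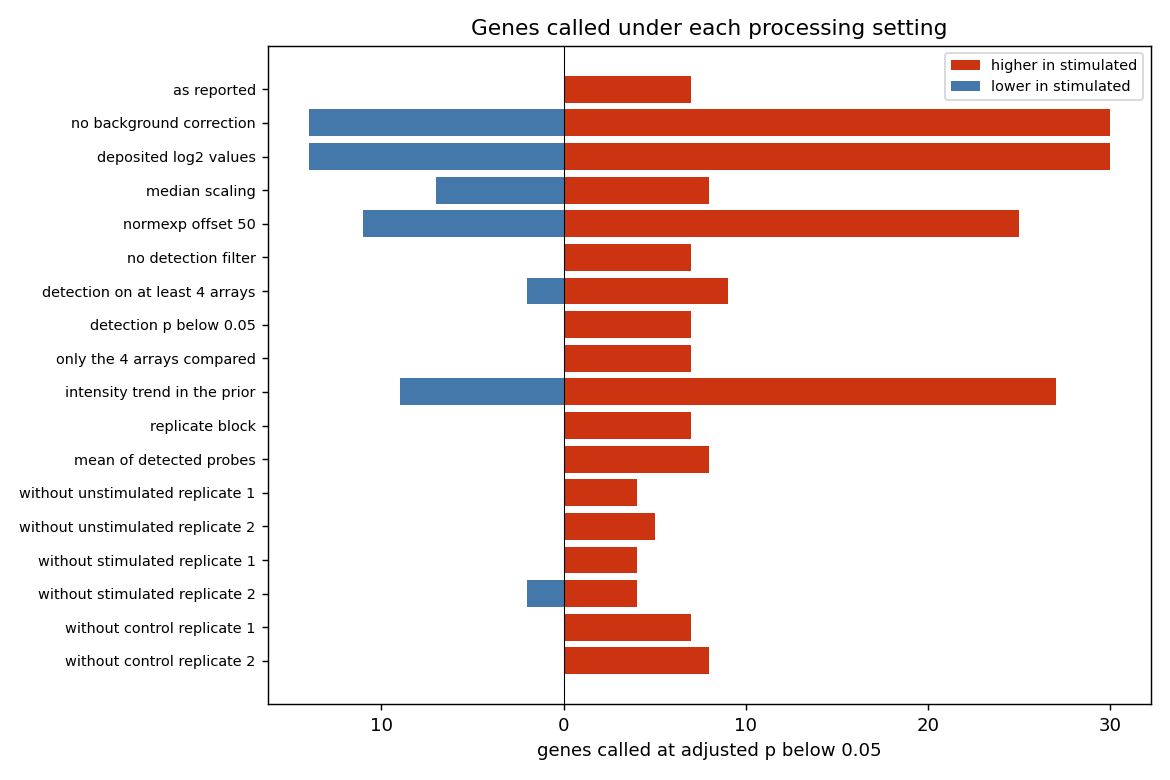
Number of genes called at an adjusted p below 0.05 (horizontal axis) under each processing setting, with genes higher in stimulated cells to the right and lower ones to the left. The reported values give 7 higher and 0 lower, and the deposited log2 values 30 and 14.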

How the data were processed

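The 6 samples' total RNA went onto 1-colour Illumina mouse bead arrays. The labels' protocols name Trizol for extraction and biotin as the label. The deposited intensities were not normalized. A detection p-value was deposited for each probe on each array, per the file headers. The deposited log2 values equalled quantile-normalized log2 intensities to within 0.00203. The software that summarised the beads was not given in the sources used here.

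Groups came from sample titles. In R 4.3.3 with limma 3.58.1, intensities were corrected by normexp from detection p-values (offset 16), quantile-normalized and logged. Probes with detection p below 0.01 on at least 2 of 6 arrays were kept (16355 of 45281). The brightest probe of each of 8909 genes was used, among 34885 probes with 1 symbol (18 had several, 10378 none). The model, over all 6 arrays, had a mean for each group, with 3 residual and 6.02 prior degrees of freedom. A gene was called at a Benjamini-Hochberg adjusted p below 0.05. Where a gene was detected on neither array of the lower group, the fold is a bound against the lowest detected signal. The number of arrays limits the precision.

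Named genes were those called, the 10 largest rises and falls with an unadjusted p below 0.05, no overlap and, in the higher group, detection on each array, and the 3 members of smallest p of each of 37 lists, plus Tlr4, Ager, S100a8 and S100a9. Values of other list members are given to show the range of a list. The comparison and lists were chosen with earlier results of these data known. Simulated data for stimulated versus unstimulated had 8909 genes, normal noise at the moderated spread of the fit, and 67, 67 and 66 genes changed 1.5-, 2- and 4-fold. The test called 37.3%, 97% and 100% of these, besides 7 unchanged genes. In the real data it called 7 of the 19 genes with an estimate above a 2-fold rise. An estimated fold is not a true fold, so this share and the simulated ones are unlike. The simulated shares are not to be read as the power on these arrays. Samples were treated as unpaired, since the titles give replicate numbers without saying that they pair samples. Between unstimulated and stimulated, same-numbered arrays' deviations correlated at -0.0088 across genes. With 2 arrays per group this cannot settle whether samples were handled in pairs.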

Additional observations from a re-analysis of the deposited data

How the results depend on the processing

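The count of 7 genes became 44 without background correction, 44 with the deposited log2 values, 36 with an offset of 50, 36 with an intensity trend in the prior, 15 with median scaling and 11 with detection on at least 4 arrays. All 7 were among the calls each time but the last, which tested 5 of them and called those 5. Over all detected probes, 10 became 49, 49, 41, 41 and 16 under the first 5 of these, 6 with no detection filter and 5 with the 4 compared arrays alone. The cause was not tested. The deposited values and those without background correction differ by at most 0.00203, so they are not separate checks. Counts over settings hold both. Leaving out 1 array gave 4 to 8 genes and 3 to 5 probes. Without unstimulated replicate 1 or 2, or stimulated replicate 1 or 2, probes called were 4, 4, 3 and 5, and without either control replicate 5.

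With the replicate number as a block, 7 genes were called, the same 7 and 7 probes. The same 7 genes were called with only the 4 arrays compared. Over 107 named genes, 1675 of 1788 gene and setting pairs kept direction and side of the threshold, 99 newly passed, 7 lost the call and 7 turned sign. Those that turned had not passed: leaving out 1 array, Upf1 ran from -0.40 to 0.048, S100a13 from -0.32 to 0.0039, Fasn from -0.053 to 0.79, Cnn2 from -1.35 to 0.019 and Cfp from -0.13 (or -0.086) to 0.23, and Cfp was -0.067 with median scaling. Calls lost were Fas without either unstimulated replicate (highest adjusted p = 0.0881, limma), Fndc7 likewise (0.206) and Zc3h12a without unstimulated replicate 1 or either stimulated replicate (0.0824). The median of the chemokine list was 0.44 with the deposited values. Signal over background limits dim genes: of the 7, Lcn2 and Fndc7 have only lower bounds and were not tested without a stimulated array.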

Other observations

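More genes dropped out of detection with S100A8/A9 than came into it. Of the 8909 genes, 17 were detected on both stimulated and neither unstimulated array, and 81 the other way round, while the stimulated arrays detected 15303 and 15655 probes against 15727 and 16176. The part of array-wide detection in these counts was not tested. Besides Lcn2, Fndc7 and Cxcl9, the 17 included Rhbdf2, a regulator of TNF release (at least 1.52-fold, limma adjusted p = 0.0524), the acid phosphatase gene Acpp (at least 1.63-fold, adjusted p = 0.105), Rbl2, a retinoblastoma family member (at least 1.43-fold, adjusted p = 0.0524), and the second transferrin receptor gene Tfr2 (at least 1.17-fold, adjusted p = 0.105). Rhbdf2 and Acpp were chosen after their values were seen.

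Clock genes gave 0 calls of 12. Per2, a repressor of the clock, was at 7.61 and 7.92 unstimulated and 7.05 and 7.13 stimulated (log2 fold change -0.68 ± 0.22 SE, limma adjusted p = 0.461), and its second probe gave -0.52. Arntl, which encodes the activator BMAL1, was at 9.61 and 9.98, then 10.27 and 10.27 (0.48 ± 0.16 SE, adjusted p = 0.468). Of 23 glycolysis and hypoxia genes, 4 were lower and 0 higher at an unadjusted p below 0.05, against 4.4% and 3.81% of all genes. Among them Pdk1 was at 11.68 and 11.91, then 11.48 and 10.98 (-0.56 ± 0.19 SE, adjusted p = 0.468).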
